A study of Mus musculus with 6 samples.

Results

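The IL-1 family set comprised 8 mouse genes: the ligands Il33, Il1a, Il1b and Il18, the antagonist Il1rn, and the receptor subunits Il1rl1, Il1r1 and Il1rap. On the bead array they were the 20 probes carrying the target names IL33, IL1A, IL1B, IL1RN, IL18, IL1RL1, IL1R1 and IL1RAP, out of 45281 probes and 30854 target names in all. The set was chosen on values of this same comparison, with the large difference of Il33 already known. The members' differences are therefore given as a description without a test. Gene expression was measured in cancer-associated fibroblasts, the stromal fibroblasts of a carcinoma, grown as a short-term explant from a pancreatic tumour of a KPC-Brca1 mouse. The labels do not spell out the alleles, the Cre driver, the strain or the age behind that name. All 6 plates came from this explant, so differences between mice were not sampled and p-values cover the variation among plates alone. One group of 3 plates received decitabine (DAC, 5-aza-2'-deoxycytidine) at 2 micromolar for 48 hours, and the other 3 plates had no drug. Cells incorporate this cytidine analogue into their DNA, where it traps DNA methyltransferases and so lowers DNA methylation in dividing cells.

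Interleukin-33 is kept in the nucleus of stromal and barrier cells and is released when they are damaged, for which it is called an alarmin. It binds ST2, the product of Il1rl1, which then recruits the shared subunit encoded by Il1rap. Interleukin-1 alpha and interleukin-1 beta act through Il1r1 with the same shared subunit, Il1rn encodes the antagonist that occupies Il1r1 without signalling, and interleukin-18 uses a receptor pair of its own. Interleukin-1 beta and interleukin-18 are made as precursors that caspase-1 cleaves, and the receptors signal through MyD88 and IRAK kinases to NF-kappa-B. In pancreatic carcinoma, interleukin-1 is known to drive an inflammatory state of fibroblasts.

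On each array, a probe counted as detected at a detection p under 0.01, the rank of its signal among the array's negative controls. Detected probes numbered 16254 to 17180 per array without DAC and 16205 to 16528 with it, and the median raw intensity was 40.3 to 44 units. Of the fibroblast markers, 18 of 20 passed the detection filter (at least 3 arrays), among them the collagens Col1a1 and Col5a1. The fibroblast markers Postn and Fap were detected on 0 and 1 arrays. Of 16 epithelial markers 7 passed the filter, and 8, among them Epcam and Cdh1, were detected on no array. Krt7, Krt8, Krt18, Krt19, Cldn7 and Spint1 were detected on all 6 arrays; of the 7 tested, Krt7 rose 1.72-fold and Spint1 2.50-fold, and Krt19 fell. Of 16 endothelial markers 4 passed, Flt1, Egfl7, Esam and Eng, all detected on the 6 arrays, of which Flt1 rose by 0.38 and Esam fell by 0.67 on the log2 scale, while 12, among them Pecam1 and Cdh5, were detected on no array. The summed levels of both lists overlapped between the groups. All 11 mesothelial markers with a probe, including Msln and Upk3b, passed the filter as well. The DAC and untreated arrays correlated at 0.974 to 0.980 across probes and arrays within a group at 0.993 to 0.996.

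The members' promoter windows are shown first because mammalian DNA methylation, on which DAC acts, lies mainly at CG dinucleotides. Methylation itself was not measured here. The windows run from 250 bases before to 50 after an annotated transcription start, are taken from RefSeq on the build GRCm38.p6, and those shown are on the plus strand. CG, which reads the same on both strands, is in capitals. The pair of Il33 windows starts 2 annotated transcripts, at chr19:29924863-29925162 and at chr19:29945540-29945839.
Il33, upstream start: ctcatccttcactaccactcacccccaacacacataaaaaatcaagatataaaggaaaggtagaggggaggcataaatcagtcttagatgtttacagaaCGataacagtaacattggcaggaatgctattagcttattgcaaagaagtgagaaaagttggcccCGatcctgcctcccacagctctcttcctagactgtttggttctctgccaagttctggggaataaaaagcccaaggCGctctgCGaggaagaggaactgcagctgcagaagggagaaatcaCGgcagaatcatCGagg
Il33, internal start: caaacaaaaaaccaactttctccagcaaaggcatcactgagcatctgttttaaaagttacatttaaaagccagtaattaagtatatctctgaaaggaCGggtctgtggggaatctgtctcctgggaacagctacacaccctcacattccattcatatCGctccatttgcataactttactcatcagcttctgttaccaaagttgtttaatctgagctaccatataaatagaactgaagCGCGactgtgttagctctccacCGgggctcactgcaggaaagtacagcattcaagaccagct
They held 6 and 5 CG, against a median of 7 over all 32851 windows, of which 94.6% held at least 1. As many CG or fewer were found in 47.9% and 43.6% of all windows, so the Il33 windows were ordinary in this count.

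Il1rl1 likewise has 2 windows in the RefSeq table, at chr1:40429320-40429619 and chr1:40439379-40439678. They are shown with the single windows of Il18 (chr9:50554450-50554749) and Il1rap (chr16:26581455-26581754), which completes the members that passed the detection filter.
Il1rl1, first window: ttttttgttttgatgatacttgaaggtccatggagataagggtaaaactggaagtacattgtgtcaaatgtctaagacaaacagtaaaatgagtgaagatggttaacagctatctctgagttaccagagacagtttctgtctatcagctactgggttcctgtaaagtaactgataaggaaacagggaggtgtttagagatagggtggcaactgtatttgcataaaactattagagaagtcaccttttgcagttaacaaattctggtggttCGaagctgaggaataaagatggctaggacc
Il1rl1, second window: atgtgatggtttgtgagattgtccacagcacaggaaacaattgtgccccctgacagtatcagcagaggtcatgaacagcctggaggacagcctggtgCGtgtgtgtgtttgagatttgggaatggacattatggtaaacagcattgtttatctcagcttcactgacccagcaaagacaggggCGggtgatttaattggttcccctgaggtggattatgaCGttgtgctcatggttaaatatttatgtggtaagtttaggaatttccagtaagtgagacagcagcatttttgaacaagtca
Il18: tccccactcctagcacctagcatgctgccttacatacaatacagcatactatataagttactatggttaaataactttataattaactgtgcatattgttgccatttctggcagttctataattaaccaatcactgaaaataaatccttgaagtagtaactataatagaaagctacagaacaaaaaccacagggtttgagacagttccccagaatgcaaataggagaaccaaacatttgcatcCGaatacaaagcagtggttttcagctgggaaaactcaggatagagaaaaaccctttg
Il1rap: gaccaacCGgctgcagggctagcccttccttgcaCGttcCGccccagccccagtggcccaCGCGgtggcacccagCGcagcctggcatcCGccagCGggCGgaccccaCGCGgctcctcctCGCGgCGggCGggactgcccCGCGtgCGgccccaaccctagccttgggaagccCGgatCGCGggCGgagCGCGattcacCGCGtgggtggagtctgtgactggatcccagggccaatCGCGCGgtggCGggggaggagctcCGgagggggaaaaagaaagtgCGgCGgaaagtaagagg
The Il1rl1 windows held 1 and 3 CG and the Il18 window 1, and 14.1% of all windows held 1 or none. Il1rap stood at the other end with 33 CG, a count that 8.6% of windows reached. The windows of the other members held 5 CG for Il1a, 3 for Il1b, 1, 5 and 4 for Il1rn, and 5 and 14 for Il1r1. These counts describe 13 windows and were not set against the expression values by a test.

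Il33, at chr19:29925113-29960718, was the member with the largest difference and lay lower with DAC. Its probe had raw intensities of 323, 314.9 and 298.9 on the untreated arrays and 95.6, 86.9 and 99.9 on the DAC arrays. Every untreated value was above every DAC value, and the probe was detected on all 6 arrays with a detection p of 0. The standard error over beads was 11.2 to 15.3 units without DAC and 3.63 to 4.77 with it, small beside the gap between the groups. After background correction and quantile normalization, the log2 intensity was 8.14, 8.14 and 8.04 without DAC and 6.42, 6.07 and 6.37 with it. The group means were 8.11 ± 0.06 and 6.28 ± 0.19 (SD, n = 3 each), which makes Il33 3.54-fold lower with DAC, or -1.82 on the log2 scale. An offset of 16 units was added before the logarithm, so fold changes of dim probes are understated. Of the 16883 probes that passed the filter, 5, Il33 among them, had a difference at or below this value. The Il33 signal stayed above the negative controls on every treated plate.

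**Figure D1:**
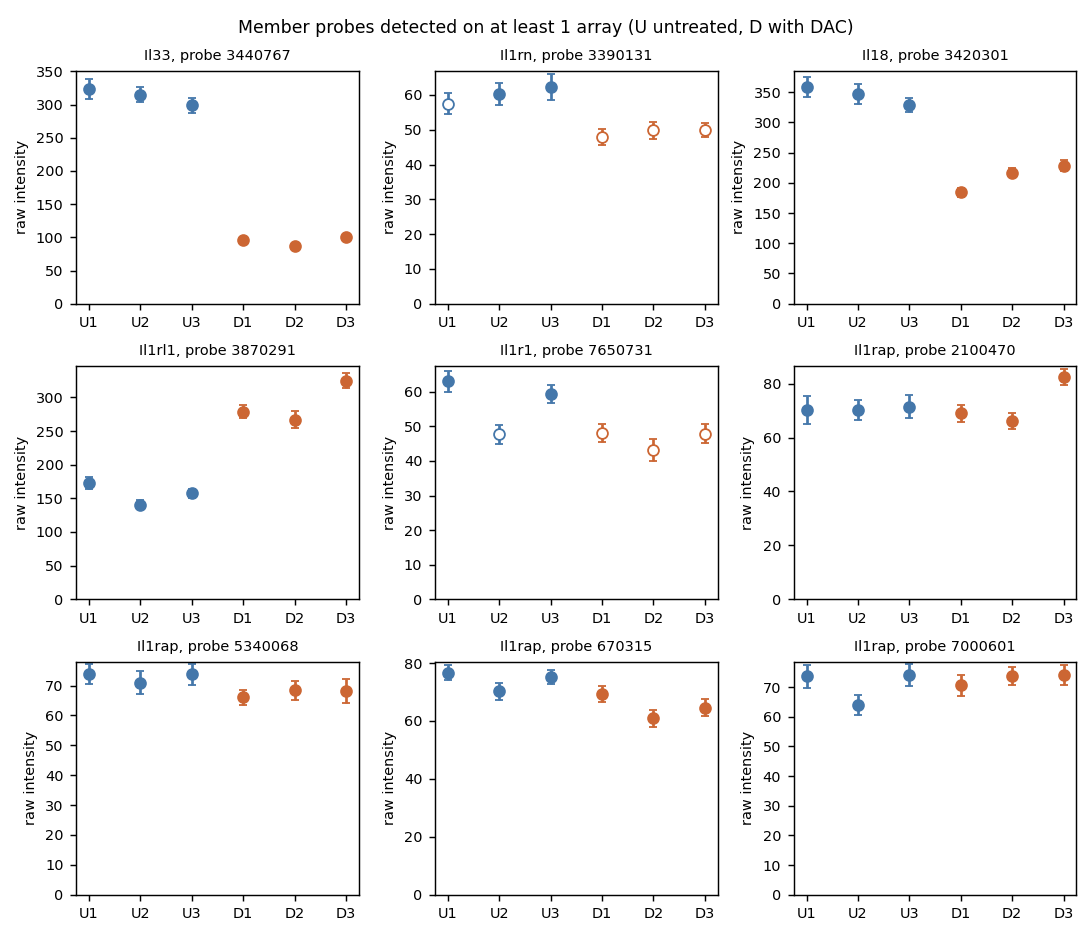
Raw bead intensity (linear scale from 0, arbitrary units) of the 9 member probes detected on at least 1 array, for untreated plates 1 to 3 (U, blue) and DAC plates 1 to 3 (D, orange). Bars are the standard error over beads of that probe, and open circles are arrays where the probe was not detected. The Il33 and Il18 points lie lower with DAC, the Il1rl1 points lie higher, and the 4 Il1rap probes stay between 60.9 and 82.5.

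Markers of mesothelium, the cell layer that lines the peritoneum and covers the pancreas, moved with Il33. Of the 11 tested, 9 fell, 1 rose (Nkain4, 1.32-fold, limma adjusted p = 0.0202) and Krt8 was not called. Bnc1, a transcription factor of mesothelium, fell 2.53-fold (adjusted p = 2.18e-07), and Krt19, also an epithelial keratin, fell 2.30-fold (1.98e-05). Msln, the mesothelial surface protein mesothelin, fell 1.63-fold (0.00032). The median log2 change of the list was -0.71, beside 0.00 over the 11538 genes tested, of which 14.1% were called higher and 13.9% lower. The summed linear level of the 11 genes was 15095 to 16190 without DAC and 8064 to 9173 with it, without overlap. Upk3b, the brightest of them, weighs most in this sum, with log2 means of 13.13 without DAC and 12.14 with it. The fibroblast list had a median of -0.11, with 1 gene higher, 3 lower and 14 not called. Its summed level was 125714 to 127825 without DAC and 116025 to 124126 with it, also without overlap. In bulk RNA, fewer cells of a type and less RNA per cell cannot be told apart, and the part of the mesothelial markers in the Il33 difference was not tested.

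Among the 11537 other genes, those with array profiles nearest to Il33 were taken by the root mean square difference over the 6 arrays after each probe's own mean was subtracted. They included Cxadr at a distance of 0.118, Selp at 0.151, Unc13c at 0.155 and Lpl at 0.156 log2 units. Cxadr, the coxsackievirus and adenovirus receptor of cell junctions, had log2 intensities of 10.10, 10.01 and 10.16 without DAC and 8.54, 8.30 and 8.46 with it. Its DAC plate 2 was the lowest of the 6, as it was for Il33. Lpl, lipoprotein lipase, had its lowest value on the same plate at 9.76, whereas Selp, the adhesion molecule P-selectin, had its lowest on DAC plate 1 at 5.79. Unc13c, a presynaptic vesicle-priming protein, was detected on all 3 untreated arrays and on no DAC array. With 3 arrays in each group, this measure is set mainly by the size of the group difference.

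**Figure D2:**
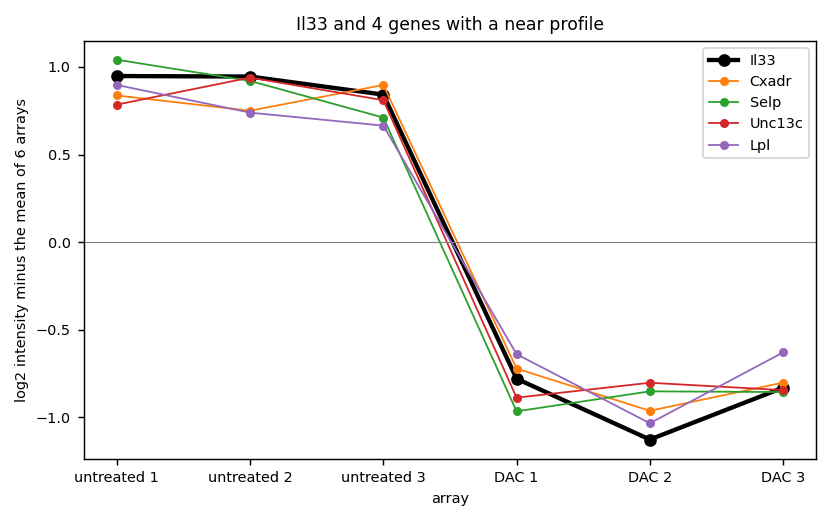
Log2 intensity of Il33 (black) and of 4 genes with a near profile on each of the 6 arrays, after subtracting each probe's mean over the arrays. All 5 lines lie above 0 on the untreated arrays and below 0 on the DAC arrays, and the Il33 line is lowest on DAC plate 2.

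The genes beside Il33 on chromosome 19, 2 protein-coding genes on each side picked after their values were seen, differed less than Il33. Ranbp6, the neighbour on the upstream side with a probe that passed the filter and an importin-like gene, had a log2 change of -0.33 (limma adjusted p = 0.0269). Uhrf2 on the downstream side, a paralogue of the DNMT1 partner UHRF1, had -0.32 (0.0354). The other two neighbours, 9930021J03Rik and Trpd52l3, had probes on the array, none of which passed the filter.

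Il18, at chr9:50554700-50581841, encodes the other ligand with a detected signal. Its probe 3420301 had raw intensities of 359, 347 and 328.8 without DAC and 184.3, 217.1 and 228.5 with it, and the groups did not overlap. The log2 means were 8.27 ± 0.06 and 7.63 ± 0.10 (SD, n = 3 each), 1.55-fold lower with DAC. The difference on the log2 scale was -0.63, and 595 of the filtered probes (3.52%), this one included, lay at or below it. The second Il18 probe was detected on no array, with raw intensities of 40.6 to 47.5. Within the DAC group, plate 1 was lowest for Il18 whereas plate 2 was lowest for Il33.

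Il1a (chr2:129299609-129310186) and Il1b (chr2:129364569-129371164), the ligands of Il1r1, were below detection throughout. The Il1a probes read 35.6 to 38.7 and 31.7 to 32.1 without DAC, and 36.2 to 41.2 and 29.6 to 35.3 with it. The Il1b probe read 40.4, 37.1 and 37.5 without DAC and 36.8, 40 and 36.4 with it. These values lie near the median raw intensity of each array, where most probes were not detected, so no level or change of either ligand could be given at this sensitivity.

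Il1rn (chr2:24336860-24351491), which encodes the receptor antagonist, was at the edge of detection on 1 of its 4 probes. Probe 3390131 read 57.5, 60.3 and 62.2 without DAC, with detection p of 0.0128, 0.00214 and 0.00107, so that 2 of 3 untreated arrays passed. With DAC it read 47.8, 49.8 and 50, and the detection p was 0.0299, 0.0288 and 0.0235. The DAC values were all below the untreated ones, and the probe was not detected on any DAC array. Because untreated plate 1 was itself below detection, neither a fold nor a bound on it is given. Where a bound is given for another gene, it sets the mean of the detected group against the lowest detected signal on each array of the other group. The other 3 probes were detected on no array.

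Of the receptors, Il1rl1 (chr1:40404864-40465418), which encodes the interleukin-33 receptor ST2, went the opposite way from its ligand. Its probe 3870291 read 172.6, 140.6 and 157.6 without DAC and 278.6, 266.6 and 325.1 with it. It was detected on all 6 arrays, and every DAC value lay above every untreated one. The log2 intensities were 7.12, 6.84 and 6.98 without DAC and 8.20, 7.93 and 8.29 with it. The means were 6.98 ± 0.14 and 8.14 ± 0.19 (SD, n = 3 each), 2.24-fold higher with DAC, and 229 filtered probes, this one included, lay at or above its log2 difference of 1.16. The second Il1rl1 probe was detected on no array, at 32.8 to 36 raw units. Il1rl1 yields a membrane receptor and a soluble decoy form from different transcripts, and the table does not say which of them either probe reads.

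ST2 is also a surface receptor of mast cells and group 2 innate lymphoid cells, so their markers stand beside it. Of 14 such genes, 10 were detected on no array, among them Kit, Cpa3, Tpsb2, Fcer1a and Ms4a2, which define mast cells, and Gata3 and Il5. Hdc was detected on 1 DAC array and 0 untreated arrays and was not tested. Its log2 means were 4.45 without DAC and 5.09 with it, the same direction as Il1rl1. Of the 3 tested, Gata2 and Il13 were not called. Areg, a growth factor also made by other cells, was at least 1.68-fold higher with DAC. It was detected on 3 DAC arrays and 0 untreated arrays and passed the filter only through the former, so no p-value is given. The summed level of the 3 tested genes was 251 to 261 without DAC and 221 to 267 with it, so the ranges overlapped. This sum mainly reads Gata2, whose untreated log2 mean was 7.96, beside 4.52 for Areg and 4.89 for Il13. It therefore does not speak for the list. Some leukocyte markers lay higher with DAC, as Il1rl1 did. By limma 7 of 9 tested rose and 0 fell, where 14.1% of all genes were called higher and 13.9% lower. The 7 include Cd53 and Csf1r, which passed the filter only through the DAC arrays. The others that rose, Cd68, Lyz1, Lyz2, Laptm5 and Coro1a, were detected on all 6 arrays. Cd14 and Cd3e, also detected on all 6, were not called. The counts of the 9 were the same at an unadjusted p under 0.05, and their median log2 change was 0.69. Their summed level was 833 to 904 without DAC and 1421 to 1451 with it. The genes that rose included Laptm5, a lysosomal protein of blood cells (2.29-fold, adjusted p = 1.19e-05), and Lyz1, a lysozyme (1.72-fold, 3.95e-05). Cd53, a leukocyte tetraspanin, and Csf1r, the receptor of macrophages for CSF1, were detected on all 3 DAC arrays and on 0 untreated arrays. They were at least 2.00-fold and at least 1.33-fold higher with DAC. Both passed the filter only through the DAC arrays, where they were high, so no p-value is given. Nothing is read from their place among the 7, in the median or in the summed level. Of the 19 leukocyte markers with a probe, 9 were detected on no array, and the defining markers Ptprc, Adgre1, Itgam, Tyrobp and Spi1 were among them. The part of leukocyte transcripts in the Il1rl1 difference was not tested.

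Il1r1 (chr1:40222480-40316201), the signalling receptor of interleukin-1, was dim. Its probe 7650731 read 63.1, 47.7 and 59.4 without DAC, with 2 of 3 arrays detected, and 48.1, 43.2 and 47.9 with DAC, with none detected. The groups overlapped, since untreated plate 2 read lower than DAC plates 1 and 3. Because the groups overlapped and untreated plate 2 was itself below detection, no bound on the fold is given. The other probe was detected on no array.

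Il1rap (chr16:26581509-26730128), the subunit shared by the receptors of interleukin-1 and interleukin-33, had 4 of its 6 probes detected on all arrays, with small differences of both signs. Probe 2100470 read 70.3, 70.2 and 71.5 without DAC and 69, 66.2 and 82.5 with it, a log2 difference of 0.22. That value was 0.34 without DAC plate 2, where the probe was called, and 0.10 without DAC plate 3. Probe 7000601 read 73.7, 64 and 74 without DAC and 70.6, 73.7 and 74 with it, a log2 difference of 0.25. The groups overlapped in raw intensity for both, and after normalization for the first of them. Probes 5340068 and 670315 differed by 0.03 and -0.09 on the log2 scale, with overlapping groups after normalization. In raw intensity, every DAC value of both probes lay below every untreated one. Probe 5340068 read 71 to 73.9 without DAC and 66 to 68.4 with it, and probe 670315 70.2 to 76.7 and 60.9 to 69.4. The log2 difference of probe 5340068 turned to -0.13 without normalization between arrays. That of probe 670315 turned to just above 0 without DAC plate 2. With all 6 arrays none of the 4 probes was called, and the remaining 2 were detected on no array. The ligand Il33 and its binding receptor Il1rl1 thus lay in opposite directions, while the probes of the shared subunit differed by -0.09 to 0.25 on the log2 scale with all arrays.

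Taking all members, 7 of 20 probes passed the detection filter, from 4 of the 8 genes. The fit over all probes called 3 of these 7 (Il33, Il18 and Il1rl1), where 27.7% of all 16883 filtered probes were called, 2220 higher and 2454 lower. The count was 4 without DAC plate 2, with an Il1rap probe, and 4 with a detection p under 0.05 as the filter, with the Il1rn probe 3390131. Because the members were chosen from this contrast, nothing is read from that count. Scaling each array to its 75th percentile gave 59.9% of the calls as higher, and no normalization between arrays 23.1%, against 47.5% with quantile normalization. Il33 and Il18 stayed lower and Il1rl1 higher with DAC under all 15 alternative settings. The 11 member probes detected on no array read 26.8 to 47.5 raw units, and their log2 differences were -0.04 to 0.10.

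**Figure D3:**
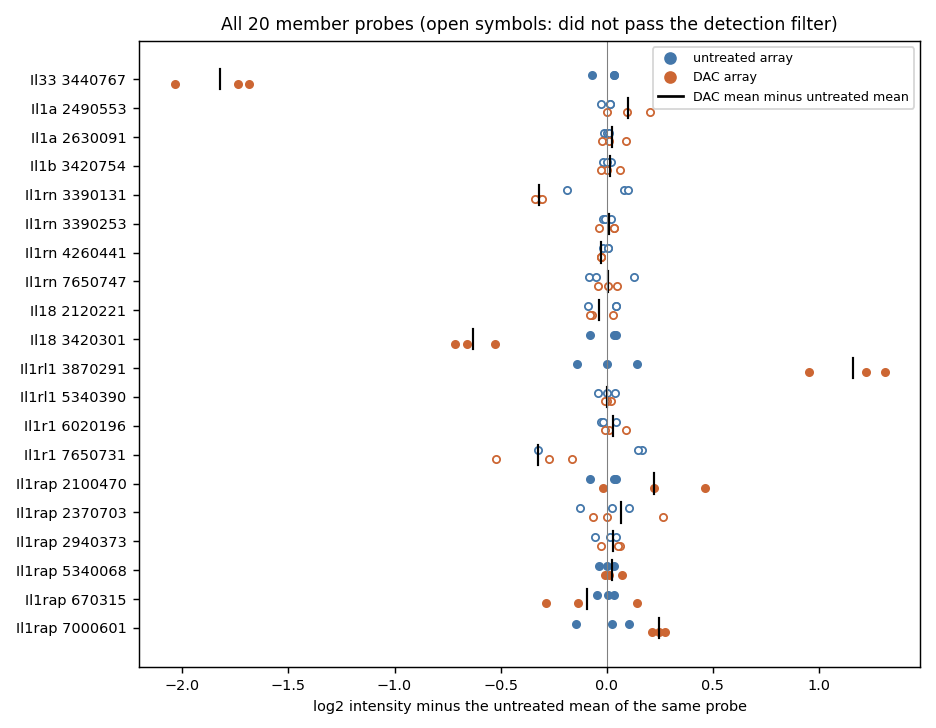
Log2 intensity of every member probe on each array (points) relative to that probe's untreated mean, with the difference of the group means as a black bar. Of the 20 probes, Il33 3440767 (-1.82), Il1rl1 3870291 (1.16) and Il18 3420301 (-0.63) lie farthest from 0; open symbols are probes that did not pass the detection filter.

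The remaining ligands and receptors of the family gave little signal in this culture. Of 13 genes, 10 were detected on no array, including the interleukin-36 ligands Il36a, Il36b and Il36g, the decoy receptor Il1r2, the inhibitory receptor Sigirr and the interleukin-18 receptor chain Il18r1. The 3 tested genes, Il18rap, Il1rl2 and Il18bp, had log2 changes of -0.03, -0.25 and 0.00. None was called, and 0 of 3 had an unadjusted p under 0.05. For Il1rl2 and Il18bp the limma adjusted p was 0.184 and 0.981. Il18rap was detected on 3 untreated arrays and 0 DAC arrays and passed the filter only through the former, so no p-value is given. Il1rl2 was detected on 2 untreated arrays and 1 DAC array. All 3 were dim, so no absence of change is read from these values. Over all genes, taken by the brightest probe that passed the filter, 14.1% were called higher and 13.9% lower. Il18bp, the soluble inhibitor of interleukin-18, was detected on 5 of 6 arrays. The binding chain of the interleukin-18 receptor was therefore below detection in a culture where the ligand's transcript was detected. Which cells of the culture carried that transcript was not measured.

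Several genes of cytokine maturation and the inflammasome rose with DAC. Of 12 tested, 6 rose and 6 were not called, where 14.1% of all genes were called higher and 13.9% lower. The median log2 change was 0.36, beside 0.00 over all genes. By limma none of the 12 fell, and 1 was lower at an unadjusted p under 0.05. Casp1, the protease that cleaves the precursors of interleukin-1 beta and interleukin-18, had log2 means of 8.36 ± 0.03 and 9.34 ± 0.16 (SD, n = 3 each), a 1.98-fold rise (limma adjusted p = 1.21e-05). Casp4, which encodes mouse caspase-11 of the noncanonical inflammasome, rose 1.66-fold (0.000267). P2rx7, the ATP-gated channel upstream of the NLRP3 inflammasome, rose 2.39-fold (1.01e-05), with all 4 of its filtered probes called higher. Panx1, a channel that releases ATP, rose 1.75-fold (0.000175). Of the 24 genes of the list with a probe, 11 had no detected probe, including the sensors Nlrp3, Nlrc4 and Aim2 and the adaptor Pycard. The sensor Naip2 was detected on 5 of 6 arrays and was not called at a log2 change of 0.24 (0.156). Gsdmd, the pore-forming substrate of the inflammatory caspases, was not called at a log2 change of 0.21 (0.159). The leukocyte markers given above rose on the same DAC arrays, and their part in these rises was not tested.

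The signalling chain below the receptors differed little. Of 31 tested genes, 2 rose, 3 fell and 26 were not called, where 14.1% of all genes were called higher and 13.9% lower. The median log2 change was 0.01, beside 0.00 over all genes. Myd88, the adaptor of the receptors, had log2 means of 10.60 ± 0.07 and 10.66 ± 0.03 (limma adjusted p = 0.714), and Irak4 and Traf6 were not called either (0.303 and 0.399). Map3k7, the kinase TAK1, rose 1.43-fold (0.00402) on 1 of its 2 filtered probes, and Irak3, an inhibitory IRAK, rose 1.36-fold (0.0144). By the brightest probe of each, Map3k3 and Ube2n fell 1.25-fold and Irak1 1.32-fold. For Irak1, a receptor-proximal kinase, the call rests on the brightest probe (log2 change -0.40, adjusted p = 0.0287), whereas another probe was called higher (0.36, 0.0319), so no direction is given for the gene. These few calls moved with single arrays. The count of genes lower was 0 without DAC plate 1, 1 without untreated plate 1 or 2 or DAC plate 2, and 2 without untreated plate 3 or DAC plate 3, and the count higher was 1 to 3.

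Genes known to respond to interleukin-1 in fibroblasts were called in both directions, more of them higher. Of 30 tested, 11 rose, 4 fell and 15 were not called, where 14.1% of all genes were called higher and 13.9% lower. The median log2 change was 0.20, beside 0.00 over all genes. Cytokine genes were among those that rose, among those not called and among those not detected. Ccl7 had log2 means of 10.36 ± 0.24 and 11.56 ± 0.09, a 2.29-fold rise (limma adjusted p = 7.55e-06), Cxcl1 rose 1.59-fold (0.000203), Ccl2 1.59-fold (0.000769) and Csf1, the macrophage growth factor, 1.46-fold (0.0054). Ptges, a prostaglandin E synthase, rose 1.61-fold (0.0022), and Il11, a cytokine of the interleukin-6 family, 1.41-fold (0.0126). Irf1, an interferon-induced transcription factor, rose 1.56-fold (0.000572), a call made for 2 of its 5 filtered probes.

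The 4 genes that fell were Cebpb, Nfkbiz, Icam1 and Vcam1, the last on 1 of its 2 filtered probes. Cebpb, a transcription factor of the acute-phase response, fell 1.62-fold (limma adjusted p = 0.00013), and Nfkbiz, an NF-kappa-B cofactor induced by interleukin-1, fell 1.52-fold (0.000848). Icam1, an adhesion molecule for leukocytes, fell 1.47-fold (0.00114). Hallmark products of interleukin-1 action were below detection in both groups: Il6, Cxcl2, Ptgs2, Csf2, Csf3 and Tnf were detected on no array, nor was the chemokine Ccl20. Lif, another cytokine of inflammatory fibroblasts, was not called at a log2 change of -0.13 (0.528). The genes that rose and those that fell thus came from one list, in which more genes rose than fell. Without normalization between arrays the counts were 6 higher and 5 lower, with a median log2 change of 0.07. The summed level of the tested genes overlapped between the groups, at 19282 to 20402 without DAC and 20074 to 20398 with it.

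**Figure D4:**
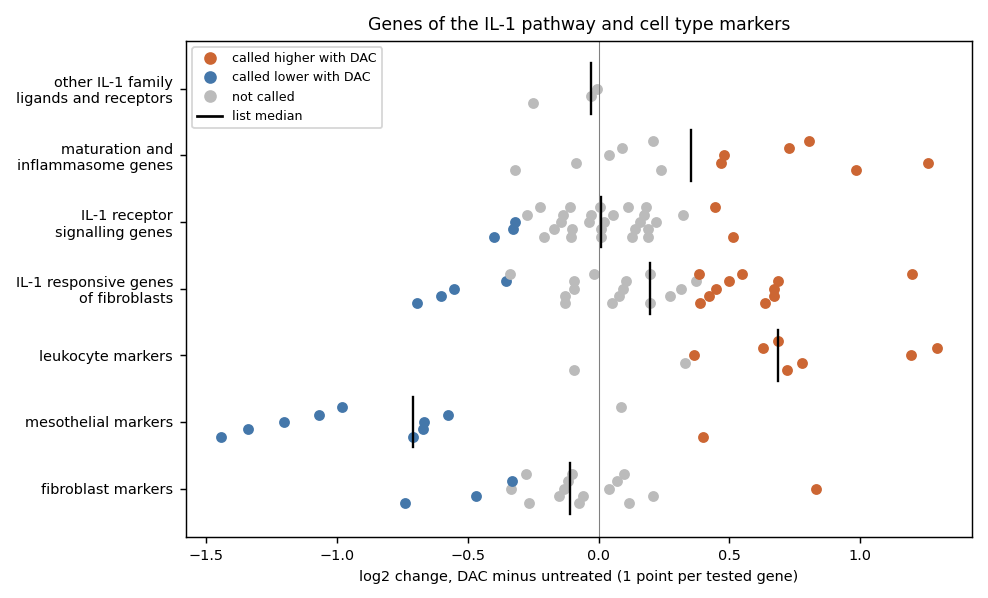
Log2 change with DAC of each tested gene (1 point per gene) in the 4 IL-1 pathway lists and 3 marker lists, with the list median as a black bar; orange points were called higher, blue points lower and grey points were not called. The maturation and leukocyte lists lie to the right of 0 (medians 0.36 and 0.69), the mesothelial list to the left (-0.71), and the signalling list is centred near 0 (0.01). The leukocyte median includes Cd53 and Csf1r, which passed the detection filter only through the DAC arrays.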

How the data were processed

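Total RNA of 6 plates was labelled with biotin and hybridised to Illumina bead arrays, per the labels' protocols. The deposited table holds, per the file headers, a mean bead intensity per probe and array, its standard error, a detection p-value and a count of beads (25 to 69 for the member probes). The values were judged from their range to be linear, not background-subtracted and not normalized. The sources used here name neither the scanner software nor a build for the probes. A second deposited table of intensity values lists probes under other identifiers, so it was not used here.

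From the intensities, background was corrected by normexp from the detection p-values, 16 units were added, and quantile normalization of log2 values followed (limma 3.58.1, R 4.3.3). The 16883 probes that reached a detection p under 0.01 on 3 or more arrays were tested with lmFit and eBayes (two-sided, Benjamini-Hochberg adjustment over all of them). A probe was called at an adjusted p under 0.05, and "rose" and "fell" refer to calls. In lists, a gene is its brightest filtered probe. Target names were updated to GRCm38.p6 symbols (27760 probes by symbol, 7994 by synonym, 9527 not matched). Named are all members, called genes of each list with a log2 change of at least 0.5 or up to 6 by p, defining genes that were not detected, and the 5 nearest to Il33, though some genes the rule takes are not reported here. Other list genes that were not called, and markers, were picked with their values in view. The members, the 10 gene lists and the rules were chosen with earlier results of these data known. The pipeline was tested on simulated data. The number of arrays limits the precision.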

Additional observations from a re-analysis of the deposited data

How the results depend on the processing

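The log2 difference of Il33 was -1.99 to -1.44 over 15 settings. It was -1.44 without background correction, -1.47 with an offset of 50, -1.99 without normalization between arrays, and -1.89 to -1.71 with 1 array left out. Without normalization the median of all filtered probes moved from -0.01 to -0.14 (log2) and 1266 probes rather than 2220 were called higher. The higher share of calls, 47.5%, became 23.1% without normalization and 59.9% with 75th percentile scaling. Maturation genes called lower numbered 1 rather than 0 without normalization and with the replicate number as a block. Signalling genes called higher numbered 1 without normalization, 4 with 75th percentile scaling and 1 to 3 with 1 array left out, and those called lower 6 without normalization and 0 to 2 with 1 array left out. Responsive genes called higher numbered 6 without normalization and 7 without a filter, beside 5 and 4 called lower. The 1 mesothelial marker called higher became 0 without background correction, with an offset of 50, without normalization, without a filter, with detection required on all 6 arrays, and in some of the fits with 1 array left out (0 to 1). The mesothelial settings were added after seeing the data.

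Whether equal replicate numbers pair the plates could not be settled. After each group's mean was subtracted, untreated and DAC plates of equal number correlated at 0.31, 0.31 and -0.03. Plates of unequal number correlated at -0.39 to 0.16. With the number as a block, 5630 probes were called rather than 4674 and the same 3 member probes were called. The second table could not be run because its probes are unnamed. Probes near the negative controls, as for Il1a, Il1b, Il1rn and Il1r1, give at most a bound, and none is given for these genes.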
